A study of Homo sapiens with 2 samples.

Results

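Synaptic vesicle and exocytosis genes were described in Y79, an established cell line from a human retinoblastoma, a childhood tumor of the retina. The members were the probes for transcripts whose gene name in the array files was that of a syntaxin (STX), a syntaxin-binding protein (STXBP), a VAMP, SNAP23, SNAP25 or SNAP29, a synaptotagmin (SYT), a synapsin (SYN), synaptophysin (SYP), a synaptogyrin (SYNGR), SV2, UNC13, RIMS, a complexin (CPLX), NSF, NAPA, NAPB, BSN or PCLO. The choice used names only and no measured value. It took 73 genes with 110 probes, out of 41000 probes under 30967 names. Untreated Y79 cells gave the RNA for one array, and the other array held RNA of cells collected 48 h after siRNA against Ep-CAM (TACSTD1 on the array), an epithelial cell adhesion molecule. The siRNA is the only treatment by which the labels tell the groups apart, and they give no collection time for the untreated cells. The study describes both cultures as exposed beforehand to AZC, a DNA demethylating agent. An array of cells given a scrambled siRNA was not analysed here, so loss of the target and transfection itself cannot be told apart. There was 1 array per group, so no ratio could be set against a replicate, and neither tests nor p-values were computed.

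At a synapse, vesicles filled with transmitter are docked at the active zone, primed, and fused with the plasma membrane when calcium enters. Fusion is driven by SNARE proteins, with a VAMP on the vesicle that zips up with a syntaxin and a SNAP25-type protein on the target membrane. Syntaxin-binding proteins of the Munc18 type and UNC13 prime the complex, complexins and synaptotagmins tie it to calcium, and NSF with its SNAP adaptors (NAPA, NAPB) takes it apart again. Relatives of the same families serve the Golgi, endosomes and lysosomes of every cell. Photoreceptors, the lineage retinoblastoma resembles, release transmitter at ribbon synapses, which use STX3 and the complexins CPLX3 and CPLX4.

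The probes are oligonucleotides of 60 bases, and those on which the results below turn are shown here by their first 30 bases, 5′ to 3′, with positions on hg17 as the array files give them. For STX1A the capitals mark the 15 printed bases that are the same in a pair of its probes, which overlap by 45 of their 60 bases and are therefore not independent readings. By their coordinates the other probes of these genes do not overlap, and they are in lower case throughout.
STX1A probe 1, chr7:72558194-72558253, minus strand: TCTTGGTACAACCAGctgcccattttgtga
STX1A probe 2, chr7:72558209-72558268, minus strand: ccccttcaccaaaggTCTTGGTACAACCAG
STX1A probe 3, chr7:72559721-72559780, minus strand: ggtagactatgtggagagggccgtgtctga
STX6 probe 1, chr1:177694170-177703409, minus strand, across an exon junction: aagttgtcagggacatgaaagatcagatgt
STX6 probe 2, chr1:177674186-177674245, minus strand: aatctgtctctgttaagtgttttaccttct
STX6 probe 3, chr1:177645012-177645071, minus strand: gcttttatcattgcttccaagaattcaaca
SYT6 probe, chr1:114346483-114346542, minus strand: tcctgtgtaggtcaaggctgagacacttgt
SYT11 probe 1, chr1:152663458-152664091, plus strand, across an exon junction: cgaagatggatatcaccggtctctcaggta
SYT11 probe 2, chr1:152667376-152667435, plus strand: gctgactttggctttcacatttgttctttc
UNC13B probe, chr9:35394491-35394550, plus strand: attggagtatggccagggcaggagtacaca

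Values are the processed signal of a spot, in arbitrary units after background subtraction, and the log2 ratio of siRNA-treated over untreated cells after each array was divided by its median signal. That median was 48.8 for untreated cells and 50.0 after siRNA, and 70.4% and 68.0% of the transcript spots were well above background. Each member probe was printed at 1 spot. The only error that could be measured was technical: over 190 probes with repeated spots, the SD of the log2 ratio between spots had a median of 0.14, with 0.19 for signals under 100 and 0.11 for brighter ones. A value of 0.28, 2 times that median, was used below as 1 mark of technical spread for all probes. For signals under 100 the same multiple is 0.38, so the mark is lenient for dim probes. Of all measured probes 26.6% lay beyond 0.28. The mark leaves out the variation between cultures. The Ep-CAM probe itself had signals of 15.6 and 12.0 and was well above background on neither array, so the siRNA label could not be checked by its target. Of 11 photoreceptor and retinoblastoma marker genes, 6 were well above background on an array, among them CRX, OTX2 and MYCN, while NRL, NEUROD1, RXRG, PDE6H and recoverin (RCV1) were not. Of 12 genes that mark other cell types, 10 were also well above background, KRT14 and TYR among them, so being above background did not set the retinal genes apart.

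Most of the machinery gave a measurable signal. Of the 110 probes, 84 (76.4%) were well above background on at least 1 array, beside 71.7% of all probes, and 79 were so on both arrays. These 79 belonged to 57 of the 73 genes. For 12 genes no probe was well above background. Several of these encode proteins by which neurons and photoreceptors are known: SNAP25, the neuronal partner of syntaxin, which read 13.1 in untreated cells and 9.37 after siRNA, synaptophysin (SYP), the major vesicle membrane protein, with 12.8 and 12.0, and STX3 with 3.79 and 7.21. Others were STX2, STX7, STX10, STXBP5, SYN2, SYT4, SYT16 and CPLX4. Further members known from neurons or photoreceptors were well above background on both arrays. Among them were STX1A with 1542 and 1111 at 1 probe, CPLX2 with 1323 and 1265 at 1 probe, and CPLX3 with 129 and 171. A dim probe does not show that the transcript was absent. In 12 genes 1 probe was dim on both arrays while another was not, as for STX16, a syntaxin of the trans-Golgi network, with 3.88 and 4.50 at one probe and 4675 and 2681 at another. The median GC content was 38.3% over the 26 dim probes and 45.0% over the others.

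**Figure D1:**
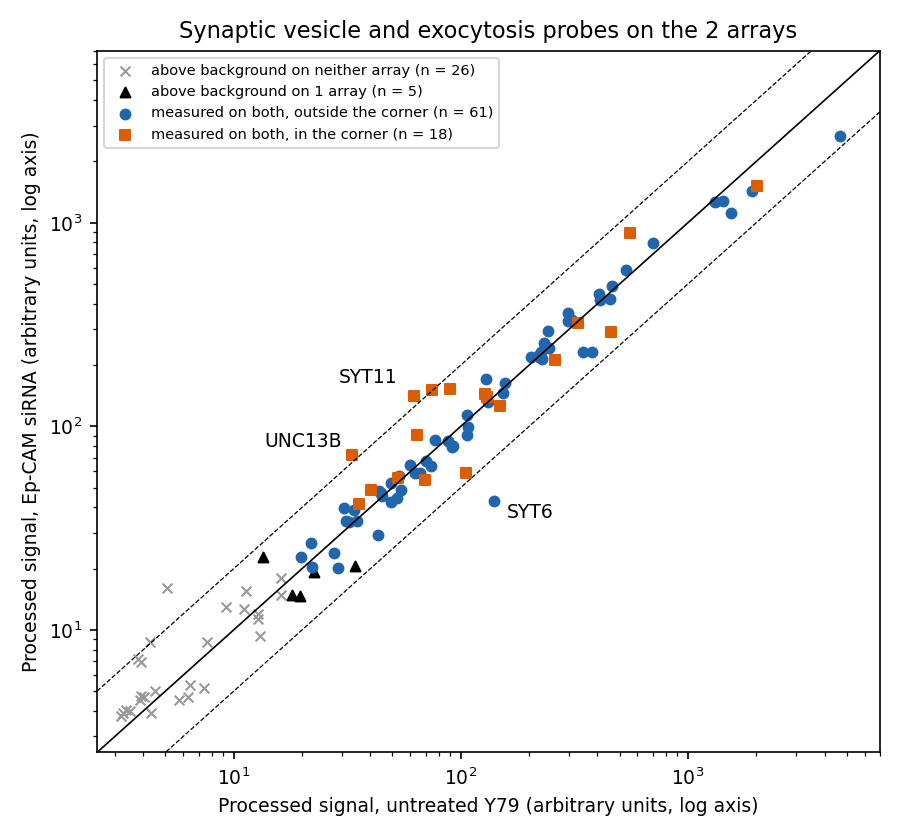
Processed signal of each of the 110 member probes in untreated (x axis) and Ep-CAM siRNA-treated (y axis) Y79 cells, both on log axes in arbitrary units. The solid line marks equal signal and the dashed lines a 2.0-fold difference, and of the probes measured on both arrays SYT6 lies below the lower line and SYT11 and UNC13B above the upper one.

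Taken as a group, the ratios of the members centered on equal signal. Over the 79 measured probes the median log2 ratio was -0.02 (quartiles -0.24 and 0.11), beside -0.03 over all 26976 measured probes, and 41 of the 79 ratios were below 0. Taking a log2 ratio of at least 1 as higher and of -1 or less as lower, 2 of the 84 probes above background were higher and 1 was lower. Among all 29396 such probes 1.27% were higher and 0.925% lower. In RNA from a whole culture, fewer cells with a transcript and less of it per cell cannot be told apart.

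SYT6, a synaptotagmin of the group that forms disulfide-bonded dimers, had the ratio farthest from 0 among the members. Its only probe, shown above, read 140 in untreated cells and 42.9 after siRNA, for a log2 ratio of -1.74. The spot lay at row 5 and column 62, and the 24 measured spots within 3 rows and 3 columns of it had log2 ratios from -0.68 to 0.63, none past the threshold in either direction. With the raw brightness deposited for the series, or with normexp background correction, the SYT6 ratio was between -0.88 and -0.83 and no longer reached the threshold. Both settings leave or add an amount in every signal, which draws the ratios of dim probes toward 0.

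The higher probes belonged to SYT11 and UNC13B. SYT11 is a synaptotagmin that does not bind calcium as SYT1 does. Probe 2 of SYT11 read 62.1 in untreated cells and 141 after siRNA, for a log2 ratio of 1.15. Probe 1 of the same gene had 59.7 and 64.9, a log2 ratio of 0.09, and the remaining probe, with 11.1 and 12.7, was dim on both arrays. The 2 measured probes of SYT11 therefore did not give the same reading. UNC13B (Munc13-2), which primes vesicles for fusion, read 33.2 and 72.3 at its only probe, for a log2 ratio of 1.09. Just short of the threshold was SYT17, known as B/K protein, with 74.9 and 151 and a log2 ratio of 0.97. With raw brightness or normexp correction, SYT11 had 0.53 to 0.79 and UNC13B 0.40 to 0.47, so neither reached the threshold. The limit of these settings given for SYT6 holds here too.

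SYT11 probe 2, UNC13B and SYT17 all lay between rows 355 and 532 and between columns 43 and 85. This corner was chosen because earlier results of these data had shown many changed probes in it. Among probes above background, 5.33% were higher inside the corner and 0.434% outside it. Of the 84 member probes above background 18 were in the corner, where 2 were higher and none was lower. Lower probes too were more frequent in the corner, with 108 of all 4986 above background there and 164 of 24410 outside it. Of the 66 member probes outside the corner none was higher, and 1, SYT6, was lower, beside 0.672% of all probes there. The SD of the log2 ratio over measured member probes was 0.60 in the corner and 0.33 outside. Around SYT11 probe 2, 11 of the 34 measured neighbouring spots were also past the threshold upward and their median was 0.54. Around UNC13B the median of 24 spots was 0.36 with 2 past the threshold, and around SYT17 it was 0.47 with 3 of 27. Without the corner no member probe was higher. The part of the spots' position in the ratios of SYT11, UNC13B and SYT17 was not tested.

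**Figure D2:**
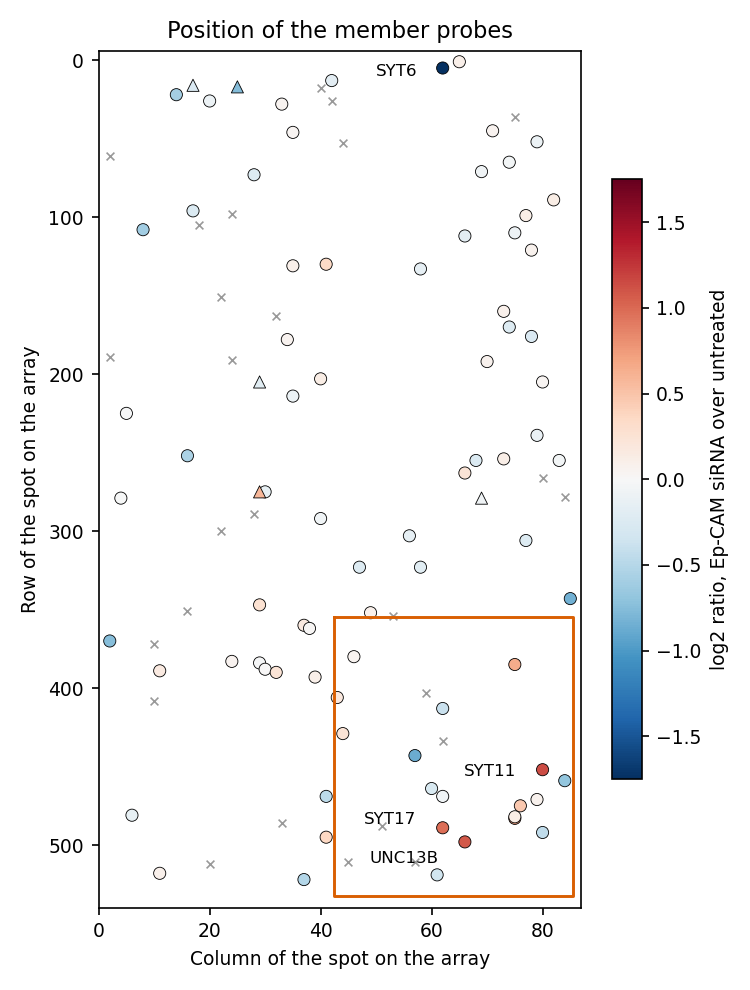
Row and column of each member probe on the array, colored by its log2 ratio (siRNA-treated over untreated), with the corner outlined in orange, bounds as triangles and probes without a ratio as grey crosses. SYT11, UNC13B and SYT17 lie inside the outline, and SYT6 lies outside it in row 5.

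Among the syntaxins, the SNAREs of the target membrane, ratios lay below 0 more often than above. Of 14 measured probes 11 (78.6%) were below 0, beside 55.2% of all measured probes, with a median of -0.32, and 7 were below -0.28, which 16.4% of all measured probes were. These 7 probes belonged to only 4 genes, STX1A, STX6, STX16 and STX4. None reached the threshold of -1, though under normexp background correction STX6 probe 1 did, with -1.07. Normexp lowered the ratios in general: the median over all measured probes was -0.20 with it and -0.03 without. Lower probes over the arrays numbered 1056 with it and 272 without.

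STX1A, the plasma membrane syntaxin of neurons, gave close readings at 3 probes. It read 1542 in untreated cells and 1111 after siRNA at probe 1, 1922 and 1433 at probe 2 and 28.7 and 20.1 at probe 3. The log2 ratios were -0.51, -0.46 and -0.55, a mean of -0.50 (SD over probes 0.04, 3 probes). All 3 spots lay outside the corner and apart from each other, at rows 522, 469 and 252, and the medians of the spots around them were 0.08, 0.17 and 0.00. Since probes 1 and 2 share most of their bases, the gene was read at 2 separate places. This closeness was not kept under other background corrections. Normexp was run with an offset of 50 added to every signal, and raw brightness has no background subtracted. An added amount draws the ratio of a dim probe, such as probe 3, toward 0, so these settings are a weak check of its ratio. Under normexp the log2 ratios were -0.98, -0.98 and 0.05 at probes 1, 2 and 3. The median over all measured probes was itself lower there, -0.20 in place of -0.03. Under normexp fitted without 1 spot dimmer than its local background the STX1A ratios were -0.39, -0.38 and -0.21. With the raw brightness of the series they were -0.37, -0.37 and -0.15. Under quantile normalization probe 2 had -0.23. Under each of these settings at least 1 STX1A probe was inside the mark of 0.28.

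STX6, which carries traffic between endosomes and the trans-Golgi network, had lower readings after siRNA at every probe of that name. Probe 3 bears the STX6 name on the array but was not among the probes matched to RefSeq. Probe 1 had signals of 378 and 231, a log2 ratio of -0.75, and probe 2, in the corner, had 105 and 58.9, a log2 ratio of -0.87. Probe 3 had 34.3 and 20.7, 1.69-fold lower, and was well above background in untreated cells only. Its reading after siRNA still lay above the lowest signal flagged as well above background on that array (17.5), so this ratio is no minimum. The mean over the measured probes was -0.81 (SD 0.08, 2 probes), and the spots around the 3 probes had medians of -0.03, -0.32 and -0.07. Over the alternatives for scaling and background, probe 1 ranged from -1.07 to -0.65 and probe 2 from -0.87 to -0.44. The log2 ratio of probe 3, -0.76 here, was -0.25 under normexp fitted without the dim spot and -0.26 with raw brightness. Both are inside the mark of 0.28, and plain normexp gave probe 3 no ratio.

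STX16, also a syntaxin of the trans-Golgi network, had 4675 and 2681 (log2 ratio -0.84) at its bright probe, in the last column of the array, where the surrounding spots had a median of -0.28. STX4, a plasma membrane syntaxin of non-neuronal exocytosis, had 2015 and 1515 at a probe in the corner, a log2 ratio of -0.45. The 32 measured spots around that probe had a median of 0.70, with 7 past the threshold upward. The other STX4 probe, outside the corner, had 244 and 242, a log2 ratio of -0.05, so the STX4 probes did not give the same reading. The remaining measured syntaxins were STX5, STX8, STX11, STX12, STX17 and STX18, with log2 ratios between -0.19 and 0.47, the highest being STX12, an endosomal syntaxin read in the corner (63.9 and 90.5).

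**Figure D3:**
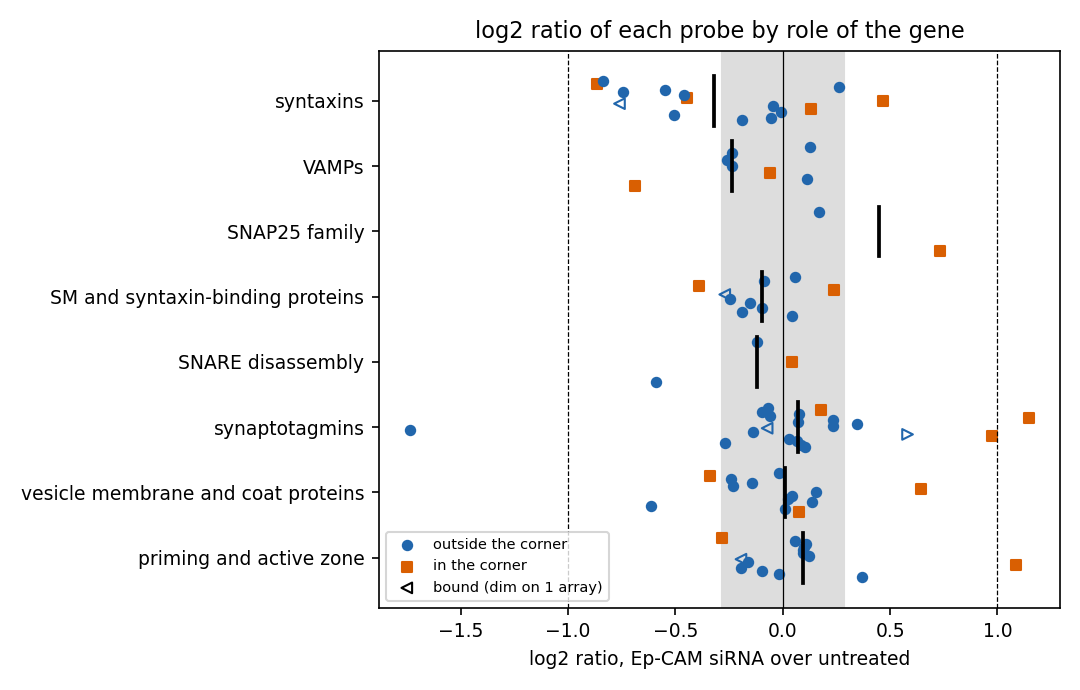
log2 ratio of siRNA-treated over untreated cells (x axis) for each probe with a ratio, grouped by the role of its gene, with the median of the measured probes as a black bar. The grey band is 0.28 on either side of 0, 2 times the median technical SD, and the dashed lines mark the threshold of 1 in each direction, which SYT6 passes on the left and SYT11 and UNC13B on the right.

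The VAMPs, the SNAREs of the vesicle, had 7 measured probes with log2 ratios between -0.69 and 0.13. VAMP2, the main synaptobrevin of the brain, had signals of 232 and 257 at one probe and 296 and 331 at another. Its log2 ratios were 0.11 and 0.13, both within the technical spread. VAMP1, the other synaptobrevin, had 458 and 291 in the corner, for a log2 ratio of -0.69, and its 20 measured neighbours had ratios from -1.07 to 2.64. VAMP3, the widely expressed cellubrevin, had 92.7 and 80.5 (-0.24), and VAMP4, VAMP5 and VAMP8 had -0.26, -0.24 and -0.06. VAMP7 is listed as SYBL1 and was not reached by its name in the files. It had 132 and 124 and a log2 ratio of -0.13.

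Of the SNAP25 family only the forms of non-neuronal exocytosis could be read. SNAP23, which stands in for SNAP25 outside neurons, read 89.2 in untreated cells and 152 after siRNA, for a log2 ratio of 0.73. Its spot was in the corner, where 4 of its 25 measured neighbours were past the threshold upward and 1 downward. SNAP29, a SNARE of autophagosome fusion, had 19.8 and 22.8 at one probe (log2 ratio 0.17), and its other probe was dim on both arrays.

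Among the syntaxin-binding proteins, the Munc18 forms hold syntaxin and guide SNARE assembly. STXBP2 (Munc18-2) had log2 ratios of -0.09 and 0.04. STXBP3 (Munc18c), at 22.6 and 19.2, was well above background in untreated cells only and 1.21-fold lower by these readings, which is no minimum. The 3 probes of STXBP6 (amisyn) ranged from -0.10 to 0.24, and STXBP4 and STXBP5L had -0.15 and -0.25.

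For SNARE disassembly, the ATPase NSF had 52.9 and 55.9 at one probe, a log2 ratio of 0.04, and was dim at the other. Its adaptor NAPA (alpha-SNAP) had 228 and 215, a log2 ratio of -0.12. NAPB (beta-SNAP), the brain form, had 43.0 and 29.3, a log2 ratio of -0.59 at a single probe outside the corner, whose 27 measured neighbours had a median of -0.16 and none past the threshold.

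The synaptotagmins, the calcium sensors and their relatives, held both the lowest and the highest ratio among the measured members. Apart from SYT6, SYT11 and SYT17 the measured log2 ratios lay between -0.27 for SYT10 and 0.35 for 1 of the SYT5 probes. SYT1, the fast calcium sensor of synaptic release, had 63.1 and 58.7, a log2 ratio of -0.14, and SYT2, its relative, had 128 and 141, a log2 ratio of 0.10. SYT7, a slower sensor with high affinity, had 44.7 and 46.8 (0.03). SYT15 was read at 4 measured probes with log2 ratios from -0.07 to 0.24 (SD over probes 0.13), and SYT3 had 0.24. SYT8 passed background in siRNA-treated cells only, from 13.5 to 22.9, and was at least 1.50-fold higher. SYT12 passed in untreated cells only, with 18.0 and 14.9.

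Of the vesicle membrane and coat proteins, 13 probes were measured and their median log2 ratio was 0.01. SYN1, a synapsin that tethers vesicles to the cytoskeleton, had 156 and 163 at one probe, a log2 ratio of 0.02. At its other probe, in the corner, it had 556 and 891, a log2 ratio of 0.65, where the 38 surrounding spots had a median of 0.41. SYN3 had 91.1 and 79.5 (-0.23). SV2A, a vesicle protein that binds the drug levetiracetam, had 705 and 793 at one probe and 73.8 and 64.0 at another, log2 ratios of 0.13 and -0.24. SV2B and SV2C had 0.07 and 0.16. Among the synaptogyrins, relatives of synaptophysin, SYNGR1 had 344 and 231 at a probe across an exon junction, a log2 ratio of -0.61, and 462 and 488 at the other, a log2 ratio of 0.04. Both SYNGR1 spots lay outside the corner. SYNGR2 had -0.34 in the corner and -0.02 outside it, SYNGR3 had -0.14 (456 and 423) and SYNGR4 had 0.01.

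At the active zone, CPLX3, a complexin of retinal ribbon synapses, read 129 in untreated cells and 171 after siRNA at a probe outside the corner, for a log2 ratio of 0.37. CPLX2, a brain complexin, had 1323 and 1265 at one probe and 31.1 and 34.1 at another, log2 ratios of -0.10 and 0.10, and the probes of CPLX1 had -0.19 and 0.11. RIMS1, an active zone scaffold, had 76.9 and 85.6 (0.12), RIMS2 had -0.02 at its measured probe, and the RIMS4 probes had 0.09 and -0.28. RIMS3, at 19.5 and 14.7, passed background in untreated cells only and was at least 1.14-fold lower. UNC13D (Munc13-4), which primes lytic granules, had 407 and 445 at one probe and 53.4 and 56.9 at another, log2 ratios of 0.09 and 0.05. BSN (bassoon), which ties the ribbon to the membrane, had 22.2 and 20.4 (-0.16). PCLO, UNC13A and UNC13C were not analysed here.

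Genes with several probes allowed a ratio to be read more than once. Of the 18 member genes with at least 2 measured probes, 2 (STX1A and STX6) were below -0.28 at every measured probe, STX1A not under the settings named above, beside 5.17% of the 3962 genes of the arrays with as many probes. None was above 0.28 at every probe, beside 0.984% of those genes. In 1 member gene, SYT11, the probes differed by 1 or more on the log2 scale, beside 5.02% of those genes. The median range between the probes of a gene was 0.30 for the members and 0.26 for all such genes. Over single measured probes, 13 of the 79 were below -0.28, beside 16.4% of all measured probes, and 8 were above 0.28, beside 10.2%. Of the 18 measured member probes in the corner 11 (61.1%) were beyond the mark in either direction, beside 45.4% of all measured probes there. Outside the corner 10 of 61 (16.4%) were, beside 23.0% of all.

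**Figure D4:**
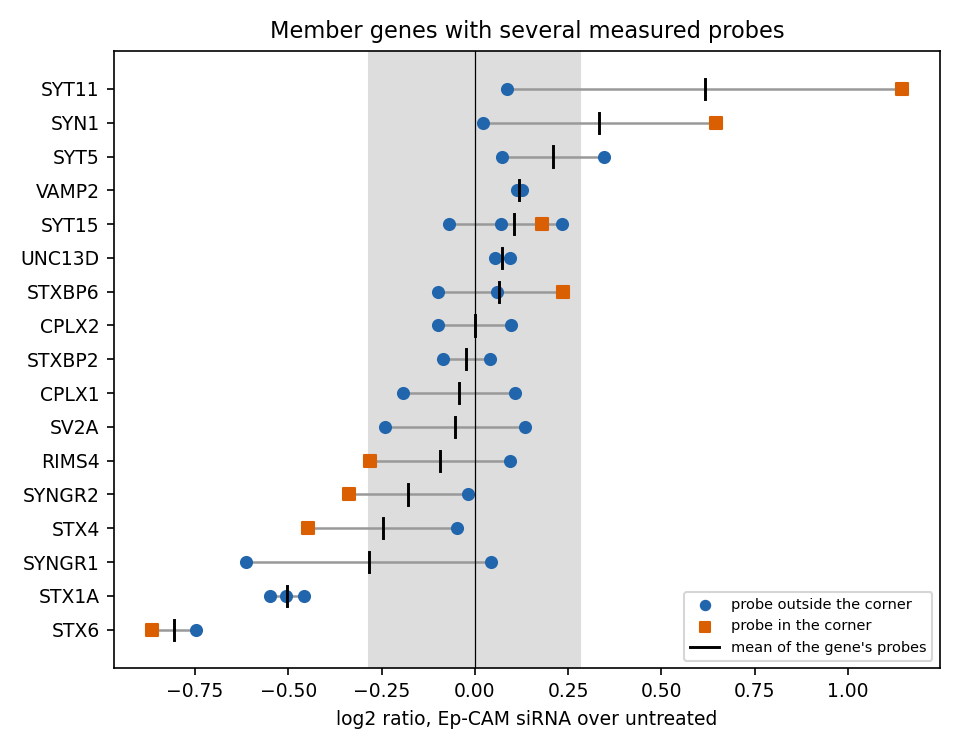
log2 ratio (siRNA-treated over untreated, x axis) of every measured probe of member genes described here with 2 or more of them, with the mean of each gene as a black bar and the grey band 0.28 on either side of 0. STX6 and STX1A lie left of the band at all their probes, while the probes of SYT11, SYN1 and SYNGR1 lie far apart.

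**Figure D5:**
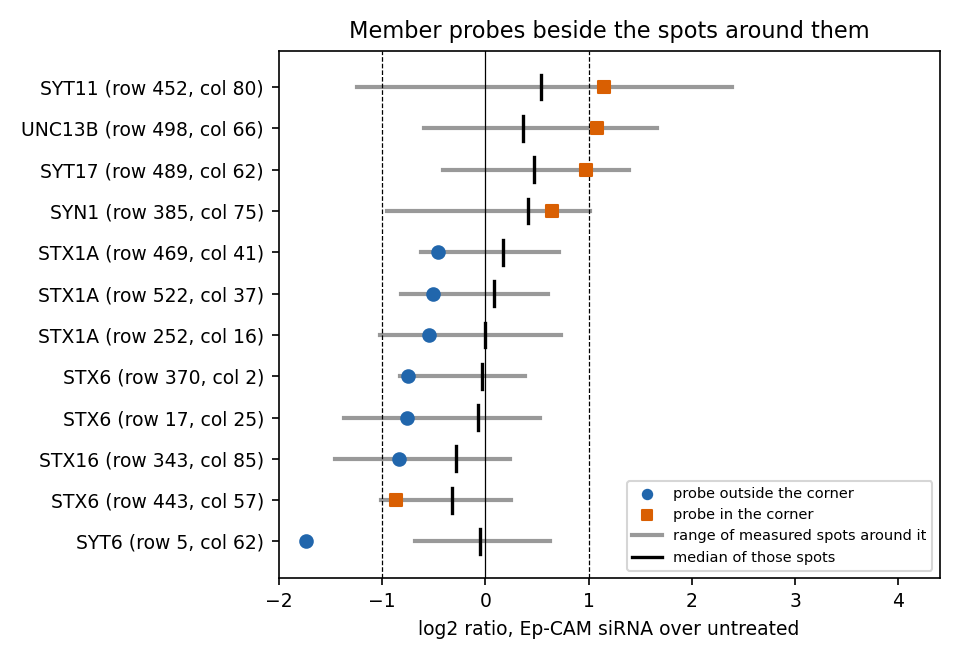
log2 ratio (x axis) of selected member probes as points, beside the range (grey) and median (black) of the measured spots within 3 rows and 3 columns of each. SYT6 lies outside the range around it, and the STX1A and STX6 probes lie below the medians around them. For SYT11, UNC13B and SYT17 the surrounding medians are themselves above 0 (the STX6 probe at row 17 was dim after siRNA).

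Other genes of vesicle filling, docking and recycling were read as well. Of a list of 76 such genes, 87 of 120 probes were above background on at least 1 array, of which 2 were higher and 1 was lower. Over all probes above background 1.27% were higher and 0.925% lower. All 3 lay among the 22 such probes of the list in the corner, where 266 (5.33%) of all 4986 were higher and 108 lower. EXOC7, a subunit of the exocyst that tethers secretory vesicles, had 32.9 and 333 at one probe, a log2 ratio of 3.30, but 2638 and 2444 at another, also in the corner, a log2 ratio of -0.14. CADPS, which primes dense-core vesicles, had 60.2 and 125, a log2 ratio of 1.02. APBA2 (Mint2), which binds Munc18, had 70.2 and 22.8 at one probe, dim after siRNA, for a log2 ratio of -1.66 that is no minimum. Another APBA2 probe had 96.8 and 87.7 (-0.18). Outside the corner none of the 65 probes above background passed, beside 0.434% higher and 0.672% lower among all probes there. The median over the 78 measured probes was -0.01.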

How the data were processed

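The deposited files hold spot intensity values, made by the authors with Agilent Feature Extraction from 1-color (Cy3) whole human genome arrays on the same slide. The file header gives version 9.5.3.1 and the labels give 9.1. The processed intensity is background-subtracted and corrected for trends within the array, and was not scaled between arrays. The value table of the series holds intensity deposited by the authors that follows the raw median brightness of the spots, and was used as an alternative. Spots of controls and outlier spots did not enter. Signals were scaled to the 50th percentile of each array, floored at 0.01 and turned into log2, and repeated spots of a probe were combined by their mean. A probe was measured where at least 50% of its spots were well above background, and not saturated, on both arrays. On an array where a probe was dim, the lowest signal flagged as well above background there (14.9 untreated, 17.5 siRNA-treated) took its place if higher, which gives a bound. A dim probe that read above that signal, as STX6 probe 3, STXBP3 and APBA2 did, kept its own reading, so its ratio is no bound. Probes dim on both arrays got no ratio. The calling code was run on simulated data with planted changes well past the threshold and flags copied from the untreated array. That run cannot speak for ratios near the threshold, for bounds or for effects of position. The rule for naming took the probes past the threshold, a list of core machinery genes and the genes whose probes differed by 1 or more. Other members, STX6, STX16 and SYT17 among them, were named after their values were seen. The members, lists and corner were chosen with earlier results of these data known, and the mark of 0.28, the selection of sequences and the neighbours shown were set after the values were seen. Of the 110 probes, 99 were matched by accession to RefSeq (GRCh38.p14), used for names only. The number of arrays limits the precision. Software was Python 3.11.15, pandas 2.3.3, R 4.3.3 and limma 3.58.1 (normexp, offset 50). Some member genes enter the counts but are not reported here by name.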

Additional observations from a re-analysis of the deposited data

How the results depend on the processing

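The count of 2 higher and 1 lower member probes was the same with the 75th percentile, the median of measured probes or quantile normalization as the scale, with a floor of 5, with outlier spots kept and with probes measured on both arrays only. It was 3 and 1 without scaling and without a background filter. With normexp it was 0 higher and 2 lower, which included STX6 probe 1 (-1.07) and did not include SYT6 (-0.84). With normexp fitted without the 1 spot dimmer than its background it was 0 and 0, and with the raw brightness of the series 0 and 0. Over all probes, the 372 higher and 272 lower became 45 and 1056, 128 and 76, and 108 and 71 under these settings. The cause was not tested. Without the corner there were 0 higher and 1 lower. At ratios above 1.5 and below 0.55 there were 5 and 2, and per gene over the mean of its measured probes 1 and 1. The median log2 ratio of the members lay between -0.04 and 0.04, except under normexp, with -0.22 beside -0.20 over all probes. With the flag for a positive and significant signal 102 probes were above background in place of 84. The ratios of SYT6, SYT11 and UNC13B fell short of the threshold under normexp in both forms and with raw brightness, and kept their direction there. Since the offset of 50 or the background stays in these signals, smaller ratios at dim probes are built into these settings. No paired analysis was possible because there was 1 array per group.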
